A study of Mus musculus with 5 samples.

Results

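The immunoglobulin genes were followed in RNA sequencing libraries of 3 mouse tumours and in 2 libraries of normal pancreas from wild-type littermates. A gene was taken as a member when its annotated type was an immunoglobulin gene other than a pseudogene and its estimated counts summed to 10 or more over the 5 libraries. The members were thus chosen by their summed counts in these same libraries, and that sum is given as a description only. The rule gave 81 members of 268 immunoglobulin genes and of 55573 genes in all, made up of 12 constant genes and 69 variable (V) genes. The tumours carried the genotype Th-Cre:MYC, in which Cre driven by the tyrosine hydroxylase promoter removes a stop cassette between a CAG promoter and a MYC transgene. The normal mice were labelled wild type and carried neither allele by that label. Per the protocol, RNAlater, an RNA-preserving solution, was run through the vessels of the normal organ before its removal, and the protocol does not say this of the tumours, so tissue and perfusion cannot be told apart. The stated question of the series was how expression differs between these tumours and normal pancreas. The titles of tumours 1 and 2 share the number 86, that of tumour 3 has 114, and no label says whether tumours 1 and 2 came from the same animal. The labels do not tie each library to an animal of its own, so the p-values speak only of variation among these samples, and part of that variation may be technical.

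Antibodies are built from heavy chains and from kappa or lambda light chains, and each chain joins a variable region, which binds antigen, to a constant region. In a B cell the variable region is assembled by joining V, D (heavy chain only) and J gene segments, so a clone of B cells and its plasma cell descendants use the same V gene. The heavy constant gene sets the class: Ighm and Ighd give the IgM and IgD of naive B cells, and after class switching the Ighg genes give IgG, Ighe gives IgE and Igha gives the IgA that is typical of mucosal tissues. Plasma cells, the antibody-secreting end stage, hold far more immunoglobulin mRNA than B cells.

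Much of the difference between the tumours lay in a few V genes, and their sequences are shown because a read can be given to a single V gene only where that gene differs from its relatives. The following are the V exons, or their last 300 bases where longer, of the heavy and kappa V genes that took most V counts in each tumour, from the GENCODE M21 transcripts on GRCm38. Each is printed 5′ to 3′ on the gene's own strand, and capitals mark the bases that differ from the nearest other annotated V gene of the same locus. These are germline reference sequences and not sequences read from the libraries. Ighv5-16 (chr12:113838526-113838825, minus strand) and Igkv12-41 (chr6:69858420-69858717, minus strand) led tumour 2, Ighv1-72 (chr12:115757984-115758283, minus strand) and again Igkv12-41 led tumour 1, and Ighv5-9 (chr12:113661769-113662068, minus strand) and Igkv1-110 (chr6:68270968-68271267, plus strand) led tumour 3.
Ighv5-16: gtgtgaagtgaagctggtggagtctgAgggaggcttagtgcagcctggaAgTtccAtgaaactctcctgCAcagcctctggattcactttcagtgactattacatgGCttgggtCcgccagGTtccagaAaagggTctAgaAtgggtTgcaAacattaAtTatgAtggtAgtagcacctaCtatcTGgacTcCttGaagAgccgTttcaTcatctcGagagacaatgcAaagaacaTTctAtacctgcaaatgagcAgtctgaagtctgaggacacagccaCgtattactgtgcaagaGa
Igkv12-41: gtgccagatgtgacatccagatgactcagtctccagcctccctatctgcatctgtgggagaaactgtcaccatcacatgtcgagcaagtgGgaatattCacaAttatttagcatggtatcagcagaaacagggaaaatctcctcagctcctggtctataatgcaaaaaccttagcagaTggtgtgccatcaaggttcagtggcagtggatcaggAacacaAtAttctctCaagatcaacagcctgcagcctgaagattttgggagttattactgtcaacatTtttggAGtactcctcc
Ighv1-72: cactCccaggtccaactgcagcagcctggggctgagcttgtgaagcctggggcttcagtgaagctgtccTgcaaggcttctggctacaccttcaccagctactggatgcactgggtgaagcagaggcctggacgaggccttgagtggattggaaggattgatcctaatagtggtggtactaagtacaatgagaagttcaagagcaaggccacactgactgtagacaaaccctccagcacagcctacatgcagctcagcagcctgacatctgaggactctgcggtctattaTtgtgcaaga
Ighv5-9: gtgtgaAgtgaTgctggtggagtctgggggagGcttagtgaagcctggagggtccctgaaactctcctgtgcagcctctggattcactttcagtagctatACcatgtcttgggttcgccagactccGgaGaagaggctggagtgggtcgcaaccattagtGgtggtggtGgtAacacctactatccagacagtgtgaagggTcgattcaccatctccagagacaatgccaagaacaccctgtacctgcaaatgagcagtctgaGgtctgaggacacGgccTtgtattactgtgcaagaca
Igkv1-110: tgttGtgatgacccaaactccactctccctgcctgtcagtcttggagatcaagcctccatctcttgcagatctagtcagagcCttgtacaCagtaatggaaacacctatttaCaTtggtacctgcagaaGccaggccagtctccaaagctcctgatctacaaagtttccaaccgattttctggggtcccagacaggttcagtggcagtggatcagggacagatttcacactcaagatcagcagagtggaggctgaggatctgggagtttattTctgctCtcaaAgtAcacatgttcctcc
Ighv5-16 stood well apart from its nearest relative, Ighv5-12, with 86.1% identity. Igkv12-41 was 95.7% identical to Igkv12-44, Ighv5-9 was 95.1% identical to Ighv5-6, and Igkv1-110 was 96.8% identical to Igkv1-117. Ighv1-72 differed from Ighv1-62-3 by 3 edits (99.0% identity), the closest pair of the group, so few reads can tell these genes apart. Ighv1-62-3 itself was listed at 0 counts in all 5 libraries. Igkv1-110 and Igkv1-117 held fractional counts in normal library 1 and in tumours 1 and 2, such as 26.22 and 38.78 in tumour 1. Their split there is therefore uncertain.

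Library totals ran from 6611967 to 51669489 estimated counts, with both normal totals above every tumour total. The listed acinar enzyme genes took 77.3% and 76.6% of the counts of the normal libraries and at most 0.471% in the tumours, so the label normal pancreas held and the tumour libraries contained little acinar RNA. Genes of the annotated type misc_RNA took 22.0%, 23.2% and 25.3% of the tumour counts and at most 0.00116% of the normal counts. This difference moved fully with the groups, and its part in the shares and changes below was not tested. Levels below are CPM, counts relative to the size of each library after TMM, a method that scales the libraries so that the bulk of genes lies at a common level. TPM, which corrects for gene length, is given where levels of different genes are set side by side. Shares of classes and of V genes are shares of counts and carry no correction for length. The immunoglobulin counts behind the values were 915 and 245 in normal libraries 1 and 2, and 13727, 97084.5 and 1271.91 in tumours 1, 2 and 3. The low normal counts and the single tumour libraries limit the precision of what follows.

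Immunoglobulin genes took a larger share of the counts in every tumour than in either normal library, and tumour 2 stood far above the rest. The share was 0.00187% and 0.000474% of all counts in normal libraries 1 and 2, and 0.0911%, 0.770% and 0.0192% in tumours 1, 2 and 3. The groups did not overlap, and the tumours themselves spread over a wider range than the gap between tumour 3 and the normal libraries. The tumour mean was 0.294% ± 0.415 (SD, n = 3) against 0.00117% ± 0.000989 (SD, n = 2) in normal pancreas, with a two-sided exact permutation p of 0.5 where the smallest possible is 0.1. Without tumour 2 the tumour mean was 0.0551%. Constant genes gave most of this signal, with 745 and 198 counts in the normal libraries and 11573, 78486 and 1001 in the tumours. Variable genes gave 170 and 47 counts against 2153.97, 18598.5 and 270.91. Because acinar RNA fills the normal libraries, the share was also taken of protein-coding and immunoglobulin counts outside the acinar enzymes. It was then 0.00854% and 0.00208% in the normal libraries and 0.133%, 1.16% and 0.0312% in the tumours, with the groups again apart (exact permutation p = 0.5). Neither share is TMM-scaled. The TMM factors were 0.271 and 0.263 in the normal libraries and 2.50, 2.57 and 2.19 in the tumours. Levels in CPM thus lie closer together between the groups than these shares of all counts do. For tumour 3 against normal library 1 they were 19.3 against 17.8 CPM for Igkc and 44.9 against 8.17 CPM for Igha. In bulk tissue, fewer cells of a type and less RNA per cell cannot be told apart.

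Across the members, 31 of 81 passed the filter on low counts and entered the test over all 16810 genes. By edgeR's quasi-likelihood test with Benjamini-Hochberg adjustment, 8 of these 31 (25.8%) rose in tumour, 0 fell and 23 did not pass. Of all genes tested, 39.2% rose and 27.8% fell, so the share of members that passed was below that of genes at large. At an unadjusted p under 0.05, 12 members were higher and 0 lower, and DESeq2 called 12 higher and 0 lower, with no adjusted p for 2. Members whose every tumour value lay above both normal values numbered 8 of 31 (all genes 46.8%), and 0 had every tumour below (all genes 34.2%). The median log2 fold change of the tested members was 5.10, beside 0.38 over all genes. It was 2.48 without tumour 2, 3.08 without tumour 1, 2.43 with tumours 1 and 2 summed to 1 sample, and 1.51 by limma on log2(TPM + 1). The medians over all genes in these fits were 0.305, 0.318, 0.403 and 0.622. Except by limma, the filter was applied anew, so these medians cover other sets of members (13 without tumour 2). Many members low in normal pancreas passed the filter because of their tumour counts, so the median of 5.10 describes those 31 genes and not all members. Of all 81 members, 37 had 0 counts in both normal libraries, 43 had their highest CPM in tumour 2, 15 in tumour 1, 10 in tumour 3, 12 in normal library 1 and 1 in normal library 2. The scaling mattered here: with library totals in place of TMM, 28 of the 31 members were called higher, while the median of all genes moved to 3.55 and 97.5% of all calls were higher, against 58.5% with TMM. On deposited TPM, limma gave 90.1% with a pseudocount of 1 and 90.7% with one of 0.1. The calls also rested on both normal libraries: without normal library 1, 1 member passed (Ighg2c, which did not pass with all libraries), and without normal library 2, 0 passed by edgeR, with 1 at an unadjusted p under 0.05. Without tumour 2, 4 of 13 tested members rose, beside 6581 of all 16859 genes tested in that fit. Without tumour 3, 23 of 41 members rose, beside 6533 of all 17579 genes tested.

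The constant genes that rose were those of IgA, of the kappa light chain and of IgG1. Igha (chr12:113254830-113260236, minus strand), the IgA heavy constant gene, had 8.17 and 5.89 CPM in the normal libraries and 33.4, 1738 and 44.9 CPM in tumours 1, 2 and 3. Every tumour was above both normal libraries, and tumour 2 was far above the other tumours. Its log2 fold change was 6.43 (SE 2.14, edgeR adjusted p = 0.0346). It was 2.48 without tumour 2, where it still passed (edgeR adjusted p = 0.000329), and it did not pass without normal library 1 (edgeR adjusted p = 0.155) or 2 (edgeR adjusted p = 0.171). In TPM, Igha stood at 1594.58 in tumour 2, rank 43 of all genes in that library, at 32.62 in tumour 1 and 34.19 in tumour 3, and at 2.65 and 1.86 in normal pancreas.

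Igkc (chr6:70726435-70726966, plus strand), the only kappa constant gene, had 17.8 and 5.01 CPM in the normal libraries against 91.9, 628 and 19.3 CPM in the tumours. Tumour 3 lay only just above normal library 1. The log2 fold change was 4.43 (SE 1.56, edgeR adjusted p = 0.042), and without tumour 2 it was 2.30 and did not pass (edgeR adjusted p = 0.0505). Without normal library 1 or 2 it did not pass either (edgeR adjusted p = 0.112 and 0.199). Ighg1 (chr12:113325240-113330523, minus strand), the IgG1 gene, was listed at 0 counts in both normal libraries and had 184, 187 and 2 counts in the tumours. Tumours 1 and 2 were alike, and tumour 3 was near 0. Against a floor of 3 counts over the normal group the pooled tumour level was at least 39.5-fold higher, and the gene rose by edgeR (adjusted p = 0.0283), though not without normal library 1 (edgeR adjusted p = 0.0993) or 2 (edgeR adjusted p = 0.1), and limma with a pseudocount of 1 TPM gave an adjusted p of 0.0714.

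The other 9 constant genes did not pass or were not tested. Ighg2b (chr12:113302965-113307933, minus strand), the IgG2b gene, had 4.34 and 0 CPM in the normal libraries and 147, 7.0 and 2.08 CPM in the tumours. It was high in tumour 1 alone, and tumour 3 lay below normal library 1 (log2 fold change 4.61, SE 2.17, edgeR adjusted p = 0.1). The fold change was 1.12 without tumour 1 (edgeR adjusted p = 0.449) and 13.32 without normal library 1 (edgeR adjusted p = 0.126), and it passed with tumours 1 and 2 summed to 1 sample (edgeR adjusted p = 0.0454). Ighm, the IgM gene, had 16.7 and 3.39 CPM in the normal libraries against 17.8, 31.4 and 1.66 CPM in the tumours, so the groups overlapped (log2 fold change 0.77, SE 1.07, edgeR adjusted p = 0.543). Ighg2c had 7.61 and 0 CPM against 6.83, 5.70 and 0.762 CPM, and its fold change turned sign when normal library 2 or tumour 1 was left out (edgeR adjusted p = 0.876 with all libraries). Ighg2b and Ighg2c are 86.7% identical over their shortest annotated transcripts, and normal library 1 held fractional counts of both (57.36 and 100.64), so their split there is uncertain.

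Ighg3 had 1 count in normal library 1, 0 in the other, and 69, 78 and 0 in the tumours, a pooled ratio of 46.7 (95% exact binomial interval 8.25 to 1857, edgeR adjusted p = 0.0572). Binomial intervals of pooled ratios, here and below, cover counting error only and leave out the spread between libraries. Ighe, the IgE gene, had 0 counts in both normal libraries and 53, 18 and 0 in the tumours, at least 7.52-fold higher than the floor of 3 counts (edgeR adjusted p = 0.0717), a bound that was 3.44 without tumour 1. Both were seen in tumours 1 and 2 and not in tumour 3, and both passed without tumour 3 (edgeR adjusted p = 0.00395 and 0.0148) and by DESeq2 (adjusted p = 0.0231 and 0.035). Ighd, the IgD gene, had 2 and 1 counts in the normal libraries against 1, 86 and 1 in the tumours, and was not tested. Its pooled ratio of 9.32 (95% exact binomial interval 3.09 to 46.1) became 0.343 without tumour 2. The lambda constant genes Iglc1, Iglc2 and Iglc3 reached at most 3.59 CPM in any library and had edgeR adjusted p-values of 0.318, 0.109 and 0.144. Iglc2 and Iglc3 are 94.3% identical, so their separate values are uncertain.

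**Figure D1:**
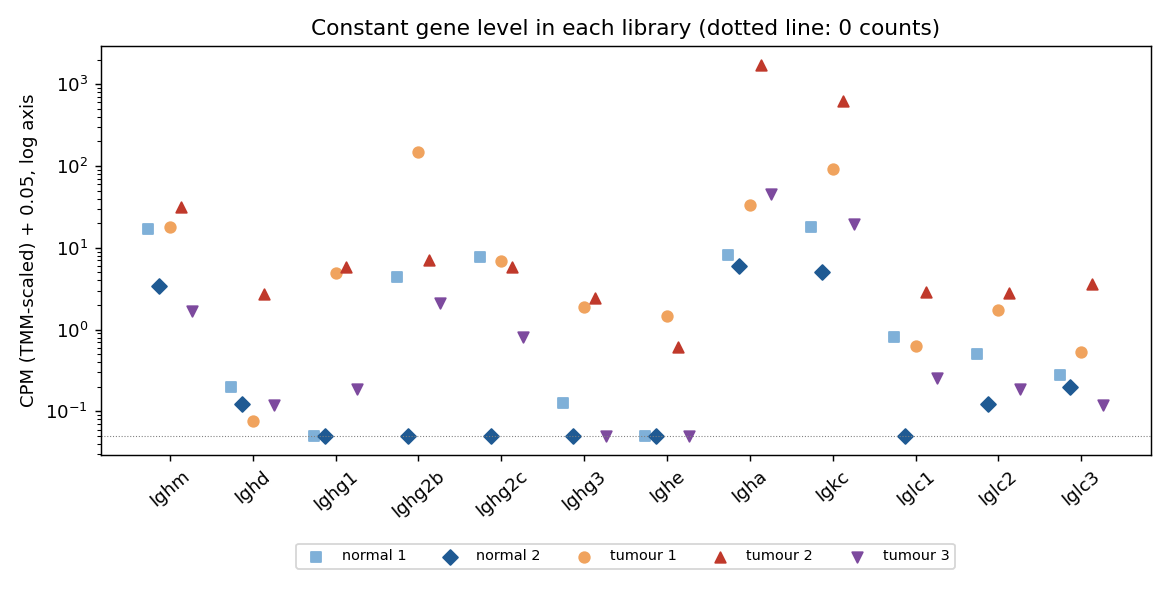
Level of the 12 constant genes in each library, as TMM-scaled CPM plus 0.05 on a log axis, with 1 point per library (squares and diamonds, normal pancreas; circles and triangles, tumours) and the dotted line at 0 counts. Tumour 2 is highest for Igha (1738 CPM) and Igkc (628 CPM), and tumour 1 for Ighg2b (147 CPM).

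The class of the heavy chain differed between the tumours as well as from normal pancreas. IgM took a smaller part of the heavy constant counts in every tumour. It held 45.1% (95% Wilson interval 40.8 to 49.5) and 36.2% (28.4 to 44.9) in the normal libraries, and 8.34% (7.75 to 8.96), 1.75% (1.65 to 1.86) and 3.35% (2.26 to 4.93) in the tumours. The means were 40.7% ± 6.28 (SD, n = 2) and 4.48% ± 3.44 (SD, n = 3), and the two-sided exact permutation p was 0.1, the smallest that 3 against 2 libraries allow. In TPM the mean IgM shares were 30.5% in normal pancreas and 3.15% in the tumours, with the same p. These intervals cover counting error only, since the reads carry no molecular identifiers and several can stem from the same molecule.

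The class that filled the remainder was not the same in each tumour. IgA held 15.7% of heavy constant counts in tumour 1, 96.9% in tumour 2 and 90.5% in tumour 3, against 22.0% and 63.0% in normal libraries 1 and 2. The groups overlapped (tumour mean 67.7% ± 45.2, SD, n = 3, normal mean 42.5% ± 29.0, SD, n = 2, exact permutation p = 0.6). IgG, all Ighg genes together, held 75.3% in tumour 1, 1.17% in tumour 2 and 6.0% in tumour 3, against 32.4% and 0% in normal pancreas. In normal library 2, 0 of 127 heavy constant counts allow an IgG share of up to 2.36%. The IgG difference had an exact permutation p of 0.8 and turned sign without tumour 1 or without normal library 2. Within tumour 1, Ighg2b alone took 5525 of 8013 heavy constant counts, 69.0% (95% Wilson interval 67.9 to 70.0). Tumours 1 and 2, whose titles share a number, thus differed more in class than tumours 2 and 3 did, as counted in these single libraries.

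**Figure D2:**
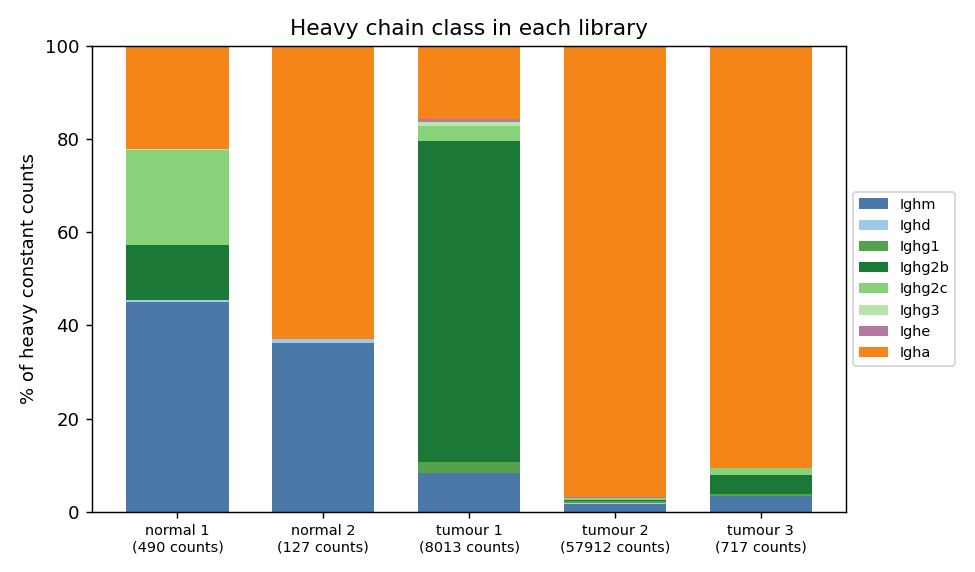
Share of each heavy constant gene in the heavy constant counts of each library, in percent, as stacked bars with the number of counts under each library. Igha fills 96.9% and 90.5% of the bars of tumours 2 and 3, Ighg2b 69.0% of that of tumour 1, and Ighm 45.1% and 36.2% of the normal bars.

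Light chains were mostly kappa throughout. Kappa took 92.5% and 95.8% of light constant counts in the normal libraries and 97.1%, 98.6% and 97.9% in the tumours. Every tumour lay above both normal libraries by a small margin (means 97.8% ± 0.742, SD, n = 3, and 94.2% ± 2.28, SD, n = 2, exact permutation p = 0.1, the smallest possible). The lambda counts behind the normal values were 19 and 3. Per length, in TPM, light constant genes stood at 1.63 and 1.65 times the heavy constant genes in the normal libraries, and at 1.23, 0.953 and 1.05 times in the tumours. For each 100 heavy constant counts there were 12.04 and 7.87 heavy V counts in normal pancreas and 12.8, 19.2 and 14.5 in the tumours. For kappa these numbers were 43.6 and 52.9 against 31.5, 36.3 and 58.6. Tumour 2, with the highest immunoglobulin counts, had the highest heavy ratio, and its kappa ratio lay below both normal values.

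The V gene counts of each tumour were concentrated in a few genes, most of all in tumour 2. There Ighv5-16 took 10679 of the heavy V counts, 96.1% (95% Wilson interval 95.7 to 96.4), and Igkv12-41 took 6816.92 of the kappa V counts, 92.6% (91.95 to 93.1). In tumour 1 Ighv1-72 took 689 counts (67.4%) and Ighv1-64 took 152 (14.9%), while on the kappa side Igkv12-41 took 641.99 (58.9%) and Igkv8-30 took 150 (13.8%). In tumour 3 Ighv5-9 led with 51 heavy V counts (49.0%) and Igkv1-110 with 72 kappa V counts (44.2%). In normal library 1 the leading genes held less, Ighv11-2 with 15 of 59 heavy counts (25.4%) and Igkv17-127 with 20 of 103 kappa counts (19.4%). Normal library 2 had 10 heavy V counts, 7 of them in Ighv1-52, and 36 kappa V counts, 16 of them in Igkv10-96.

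An effective number of V genes was computed as the inverse Simpson index, which is 1 when a single gene holds all counts and rises as counts spread evenly over more genes. For heavy V genes it was 6.89 in normal library 1, 2.09 in tumour 1, 1.08 in tumour 2 and 3.41 in tumour 3. Normal library 2 had under 20 counts and was left out, so the exact permutation p of 0.25 is the smallest possible. For kappa V genes it was 8.49 and 3.48 in the normal libraries and 2.696, 1.17 and 4.03 in the tumours, and the groups overlapped (exact permutation p = 0.3). Outside Ighv5-16, the remaining 435.93 heavy V counts of tumour 2 had an effective number of 7.64. Outside Igkv12-41, its remaining 546.64 kappa counts had one of 17.9. Of all annotated V genes, below-threshold ones included, 65 heavy and 63 kappa genes had a count in tumour 2, 58 and 58 in tumour 1, 19 and 20 in tumour 3, 17 and 25 in normal library 1, and 4 and 7 in normal library 2. The V counts behind these numbers differ widely, so they do not compare the libraries at equal depth.

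**Figure D3:**
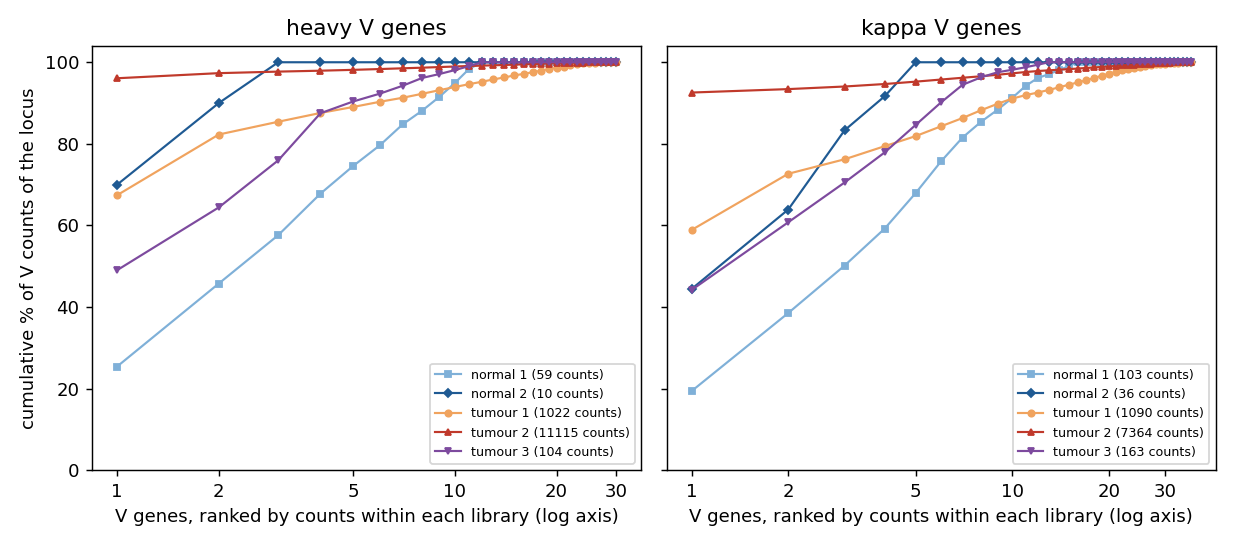
Cumulative share of V counts, in percent, against the number of V genes ranked by counts within each library (log axis), for heavy V genes (left) and kappa V genes (right), with 1 line per library. The line of tumour 2 starts at 96.1% and 92.6% with a single gene, and that of normal library 1 at 25.4% and 19.4%.

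Each leading V gene was high in a single tumour except Igkv12-41, which was high in tumours 1 and 2. Ighv5-16 had 1 and 0 counts in the normal libraries and 22, 10679 and 0 in tumours 1, 2 and 3. Only tumour 2 was high, the pooled ratio of 3400 (95% exact binomial interval 610.1 to 134300) became 11.3 without it, and the edgeR test did not pass (adjusted p = 0.0766). Ighv1-72 had 3 and 0 counts in the normal libraries against 689, 20 and 0 in the tumours, a pooled ratio of 75.1 (95% exact binomial interval 25.6 to 365) that became 3.82 without tumour 1 (edgeR adjusted p = 0.101). Ighv5-9 had 0 counts in both normal libraries and 0, 2 and 51 in the tumours, and was not tested. Igkv12-41 had 3 and 0 counts in the normal libraries against 641.99, 6816.92 and 0 in the tumours, so it led the kappa V genes of tumours 1 and 2 and was not seen in tumour 3. It rose by edgeR (log2 fold change 9.34, SE 3.33, adjusted p = 0.0435), though not without normal library 1 (edgeR adjusted p = 0.168) or 2 (edgeR adjusted p = 0.193), nor by limma on log2(TPM + 1) or log2(TPM + 0.1) (adjusted p = 0.115 and 0.13). Igkv1-110 had 9.32 and 3 counts against 26.22, 27.11 and 72, and did not pass (edgeR adjusted p = 0.126).

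Summed over genes, the smaller of the paired percentages in tumours 1 and 2 gave 5.19% of heavy V usage in common and 65.3% of kappa V usage. Tumour 3 had 19.8% of heavy usage in common with tumour 1 and 0.756% with tumour 2, and 12.5% and 1.97% of kappa usage. Of heavy V genes with a count, 48 were found in both tumours 1 and 2, which is 82.8% of those of tumour 1 and 73.8% of those of tumour 2. On the kappa side 47 were found in both, 81.0% and 74.6%. Such overlap was not limited to that pair: of the V genes with a count in normal library 1, 15 of 17 heavy and 23 of 25 kappa genes had one in tumour 2, and of those in tumour 3, 15 of 19 and 16 of 20 did. The leading kappa gene was the same in tumours 1 and 2, and the leading heavy V gene was not.

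The other 4 V genes that rose had 0 counts in both normal libraries, so each is given against the floor of 3 counts over the normal group. Igkv8-30 had 150, 6 and 11 counts in tumours 1, 2 and 3 and was at least 17.7-fold higher (edgeR adjusted p = 0.0452), a bound of 3.25 without tumour 1 and 27.6 without tumour 2. Ighv1-64 had 152, 9 and 16 counts and was at least 18.75-fold higher (edgeR adjusted p = 0.03), a bound of 4.78 without tumour 1 and 28.8 without tumour 2. Both were highest in tumour 1. Igkv3-2 had 21, 26 and 1 counts and was at least 5.08-fold higher (edgeR adjusted p = 0.0343), and Igkv6-23 had 6, 11 and 9 counts and was at least 2.75-fold higher (edgeR adjusted p = 0.0272). Igkv6-23 had the most even counts of the 4. None of the 4 passed without normal library 1 or without normal library 2, and Igkv8-30 did not pass without tumour 3 (edgeR adjusted p = 0.0608) or by limma on log2(TPM + 1) (adjusted p = 0.0583). The leading V genes of the normal libraries were of both kinds. Ighv11-2, which led the heavy V genes of normal library 1, had 15 and 0 counts there and 10, 22 and 0 in the tumours, and Igkv10-96, which led the kappa V genes of normal library 2, had 1 and 16 counts against 34.97, 44.85 and 0. Ighv1-52 had 12 and 7 counts in the normal libraries and 0, 1 and 0 in the tumours, and Igkv17-127 had 20 and 0 against 0, 2 and 0. Neither Ighv1-52 nor Igkv17-127 passed the filter on low counts, and with all genes with a count tested both were called lower in tumour (edgeR adjusted p = 0.00316 and 0.0409). The lambda V genes Iglv1, Iglv2 and Iglv3 had at most 109.93 counts in any library, and Iglv1, the only one tested, did not pass (edgeR adjusted p = 0.144).

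The spread between the tumours was wider for immunoglobulin genes than for most genes. The SD of log2(CPM + 0.5) over the 3 tumours had a median of 0.234 over all 16810 genes tested and of 1.22 over the 31 tested members (1.47 for the constant and 0.932 for the variable genes). Of the 31, 23 lay above 0.845, the 95th percentile of all genes. Ighv5-16 had the highest SD of all genes tested, 5.12, Igkv12-41 ranked 3 with 4.39, Igha ranked 28 with 3.16 and Igkc ranked 50 with 2.50. These values describe the members that passed the filter, to which a single high tumour can be enough. Some members varied less: Ighv1-26 had an SD of 0.284 and Igkv6-23 one of 0.385.

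**Figure D4:**
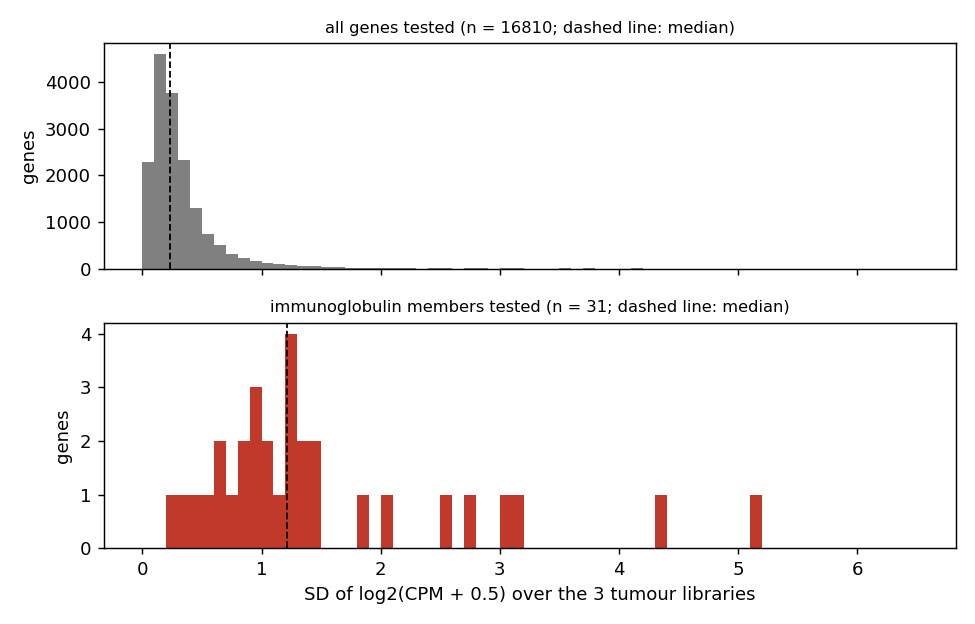
Number of genes by the SD of log2(CPM + 0.5) over the 3 tumour libraries, for all 16810 genes tested (top) and the 31 tested immunoglobulin members (bottom), with the median as a dashed line. The median is 0.234 for all genes and 1.22 for the members, which reach 5.12.

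Other genes of plasma cells and B cells were set beside the immunoglobulin genes. Jchain, which encodes the joining chain that links IgA or IgM units into polymers, rose: it had 3.33 and 1.10 CPM in the normal libraries against 13.3, 70.0 and 12.4 CPM in the tumours. All tumours were above both normal libraries, with tumour 2 again highest (log2 fold change 3.86, SE 1.03, edgeR adjusted p = 0.0155). It passed without tumour 2 (log2 fold change 2.55, edgeR adjusted p = 0.00331) and did not pass without normal library 1 (edgeR adjusted p = 0.0557) or 2 (edgeR adjusted p = 0.105). Of the 12 plasma cell genes listed, 10 were tested, 1 rose, 5 fell and 4 did not pass. Mzb1, an endoplasmic reticulum chaperone of antibody-secreting cells, had 0.529 and 0.0737 CPM in the normal libraries and 0.478, 7.68 and 0.686 CPM in the tumours. Irf4, a plasma cell transcription factor, had 0.680 and 0.295 CPM against 1.30, 12.3 and 0.554 CPM. For both, tumour 2 was high and the other tumours overlapped normal pancreas or lay near it (edgeR adjusted p = 0.105 and 0.0903).

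The 5 that fell were Derl3, Xbp1, Fkbp11, Tnfrsf13b and Sdc1. Xbp1, Derl3 and Fkbp11 serve the endoplasmic reticulum of any strongly secreting cell, acinar cells included, and Sdc1 is also a gene of epithelial cells. Xbp1 had 695 and 706 CPM in the normal libraries against 85.0, 76.3 and 78.9 CPM in the tumours (log2 fold change -3.13, edgeR adjusted p = 4.36e-05). With library totals in place of TMM, Xbp1, Fkbp11, Tnfrsf13b and Sdc1 turned to a positive sign, and Derl3 did not. Tnfrsf13b did not pass without normal library 2 (edgeR adjusted p = 0.0562). These genes moved together with the acinar enzyme list, of which 24 of 26 tested genes fell, and the part of acinar RNA in their change was not tested.

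Of 16 B cell genes listed, 8 were tested, and 0 rose and 0 fell by edgeR's test (0 at an unadjusted p under 0.05, 1 higher by DESeq2). Their summed level was 20.1 and 7.51 CPM in the normal libraries and 8.0, 50.1 and 6.02 CPM in the tumours. Tumour 2 was above both normal libraries, and tumours 1 and 3 were not above normal library 1. Ms4a1, which encodes the B cell antigen CD20, had 38 and 9 counts in the normal libraries against 9, 192 and 4 counts in the tumours. Cd79a and Cxcr5 were highest in normal library 1, with 3.18 and 1.59 CPM there against 2.73 and 1.46 CPM in tumour 2. In tumour 3, 5 of the 16 B cell genes were listed at 0, while Igha stood at 649 counts. Tumour 3 had the lowest library total, and 1 and 3 of the 16 were at 0 in normal libraries 1 and 2.

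The summed levels of markers of other lymphoid cells and of lymphoid tissue were also highest in tumour 2. Not every gene followed its sum: the T cell gene Cd2 had 1.44 CPM in normal library 1 and 1.33 CPM in tumour 2. Of the 12 T cell genes, 4 were tested and 0 passed (edgeR, 0 at an unadjusted p under 0.05, 0 by DESeq2). Their sum was 4.76 and 1.62 CPM in the normal libraries against 3.24, 23.6 and 2.29 CPM in the tumours. Of 7 genes of lymphoid tissue, such as the chemokine genes Ccl19, Ccl21a and Cxcl13, 4 were tested and 0 passed (edgeR, 1 higher at an unadjusted p under 0.05, 0 by DESeq2). Their sum was 5.13 and 0.442 CPM against 9.05, 35.04 and 3.30 CPM. Glycam1, a gene of the high endothelial venules of lymph nodes, had 0 counts in both normal libraries and 6, 278 and 0 in the tumours. Cr2, the complement receptor of B cells and follicular dendritic cells, had 0 and 0 against 6, 154 and 0. The B cell, T cell and lymphoid tissue lists had 0 genes at 0 counts in tumour 2. Tumour 1 was nearly the same, with 0, 0 and 1 genes at 0 counts, and tumour 3 had 5, 4 and 3. These markers moved with the immunoglobulin level of tumour 2, and their part in it was not tested. In these TMM-scaled sums, tumours 1 and 3 lay between the normal values for T cell genes. For B cell genes, tumour 1 lay between the normal values and tumour 3 below both. Their immunoglobulin shares, above both normal libraries, were taken of unscaled library counts, so those shares and these sums are not on the same scale.

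**Figure D5:**
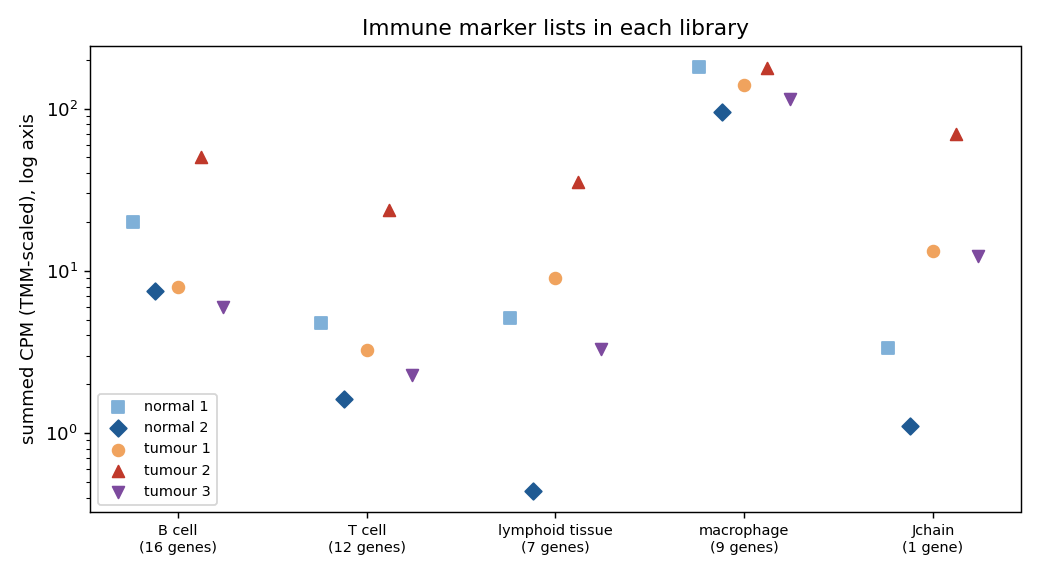
Summed TMM-scaled CPM on a log axis of 4 marker lists and of Jchain alone, with 1 point per library (squares and diamonds, normal pancreas; circles and triangles, tumours). Tumour 2 is highest for B cell (50.1 CPM), T cell (23.6 CPM) and lymphoid tissue genes (35.04 CPM) and for Jchain (70.0 CPM), and the macrophage list overlaps between the groups.

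Among receptors and transporters of immunoglobulin, 1 gene fell and 0 rose. Pigr, which carries polymeric IgA and IgM across epithelium, had 11.3 and 10.5 CPM in the normal libraries against 0.452, 0.341 and 0.623 CPM in the tumours. The groups were far apart and the tumours close to each other (log2 fold change -4.58, SE 0.294, edgeR adjusted p = 5.96e-05). It stayed lower and past the threshold with library totals in place of TMM (log2 fold change -1.39, edgeR adjusted p = 0.0113) and without each library in turn. Of the 11 genes listed, 7 were tested, 0 rose, 1 fell and 6 did not pass (edgeR, 0 higher at an unadjusted p under 0.05, 0 higher by DESeq2). Fcgrt, the neonatal Fc receptor that recycles IgG, had 7.11 and 4.93 CPM against 7.63, 11.3 and 6.72 CPM, with overlapping groups (edgeR adjusted p = 0.164).

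Genes that assemble immunoglobulin genes were set beside them. Rag1 and Rag2, which cut the V, D and J segments, were listed at 0 counts in every library. Dntt, which adds bases at the joins, had 1 count in all. Of 10 genes listed, 6 were tested and 4 rose, Msh6, Xrcc4 and Dclre1c among them, where 39.2% of all genes tested rose. These 3 also serve general DNA repair, with edgeR adjusted p-values from 0.00545 to 0.0153 and log2 fold changes from 0.70 to 1.37, next to 0.38 for the median gene. None of these 3 passed without normal library 1 (edgeR adjusted p from 0.0502 to 0.059), nor did Xrcc4 without normal library 2 (edgeR adjusted p = 0.083). The SD of log2(CPM + 0.5) over the tumours had a median of 0.190 over the 6 tested genes, against 1.22 for the tested immunoglobulin genes.

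The sum that made a gene a member left similar genes on either side. Just inside, with sums of 10 to 12, were 10 V genes, such as Igkv6-20 with 1 and 11 counts in tumours 1 and 2 and Igkv6-32 with 6 and 4 counts in tumours 1 and 2. Just outside, with sums from 8 to under 10, were 9 V genes, such as Igkv8-24 with 2 and 7 counts in tumours 1 and 2. In all, 90 V genes had a sum above 0 and below the threshold and 59 were at 0. The 14 J genes, 19 D genes and 4 other lambda variable genes were listed at 0. The J and D genes, with median lengths of 39 and 17 bases, had an effective length of 0 in the deposited files, so no read could be assigned to them and J and D usage was not analysed here.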

How the data were processed

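RNA was measured in 3 tumour and 2 normal pancreas libraries, grouped by the tissue label. The submitters' processing notes name Trim Galore 0.60, STAR 2.7, RSEM 1.31, mm10 and GRCm38, and their settings are not stated there. The authors deposited expected counts per gene, in which a read that matches several genes is divided among them, so near-identical V genes can exchange counts. They also deposited TPM values, per effective length, and the effective lengths themselves, another value in bases. A deposited FPKM table was not used, and 92 spike-in rows were left out.

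After rounding, expected counts entered edgeR 4.0.16 (R 4.3.3, TMM, filterByExpr, quasi-likelihood test, Benjamini-Hochberg over 16810 genes, threshold 0.05), positive values meaning higher in tumour. SE was derived from the log2 fold change and its F statistic. The scripts were tested on simulated data. Shares and effective numbers were compared by exact permutation over libraries (10 splits, smallest p 0.1). Folds against 0 counts use a floor of 3 counts over the normal group. Sequences and coordinates come from GENCODE M21 on GRCm38, whose identifiers matched all 81 members; identity was computed with edlib 1.3.9.post1. Alternatives were DESeq2 1.42.0, limma 3.58.1 on log2(TPM + 1) and log2(TPM + 0.1), other scalings and filters, and leaving out each library.

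Named genes were every constant member, per locus the 3 V genes with the highest mean share and the leading V gene of each library, up to 4 genes with the smallest p per list with its defining markers, and members near the threshold. The V genes that rose, Ighv1-64 and Igkv8-30 among them, and Ighv1-26 were added after their values were seen. The members and lists were chosen with earlier results of these data known. A few genes of the lists are not reported here.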

Additional observations from a re-analysis of the deposited data

How the results depend on the processing

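With library totals in place of TMM, 28 members were higher, and B cell and plasma cell genes gave 12 higher and 1 lower, against 1 and 5 in the main test. B cell and plasma cell genes higher numbered 2 with upper-quartile scaling, 5 by DESeq2, 3 by limma on log2(TPM + 1) and 4 with a pseudocount of 0.1, with 3 lower in both limma fits, and 3 with tumours 1 and 2 summed. Each of these fits but the last tested 18 of the listed genes. Of all 16810 genes tested, 15681 were higher with library totals, 7042 with upper-quartile scaling and 6498 by DESeq2. The limma fits called 10665 and 11558 of them higher. With tumours 1 and 2 summed, 7449 of all 17804 genes tested were higher. With no filter beyond a count in some library, 2 members were lower. Leaving out each library in turn gave 0 to 23 members higher, 0 to 3 B cell and plasma cell genes higher and 4 to 8 lower. The IgG difference (tumour minus normal, in percentage points) ran from -12.6 to 27.5, with -12.6 without tumour 1, -4.96 without normal library 2, and -8.14 with tumours 1 and 2 summed; the cause was not tested. The log2 fold change of Ighg2c was 9.79 without normal library 1, where it passed, -0.74 without normal library 2 and -0.16 without tumour 1. With library totals it was 0.30 for Fkbp11, 0.60 for Tnfrsf13b, 0.053 for Xbp1 and 2.20 for Sdc1, and by limma 0.32 and 0.39 for Sdc1. The other 86 summary values under the alternatives kept their direction and side of the threshold, or stayed within 1.5 times for counts, among them the immunoglobulin, IgA, IgM and kappa shares and the V gene numbers; with so few libraries no share could pass a threshold of 0.05. DESeq2 gave no adjusted p for Igha. No paired analysis was possible because the tumour titles carry no replicate number shared with the normal libraries.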

Other observations

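Genes of macrophages, another immune cell type, overlapped between tumours and normal pancreas in their summed level. Of the 9 listed, all were tested, and 0 rose and 0 fell by edgeR's test, with 1 higher and 1 lower at an unadjusted p under 0.05 and likewise 1 and 1 by DESeq2. Their summed level was 180 and 94.6 CPM in the normal libraries and 139, 178 and 115 CPM in the tumours. The median SD of log2(CPM + 0.5) over the tumours was 0.335 for this list, against 1.38 for the tested B cell genes. The 164 immunoglobulin pseudogene rows, which were no members, held 2 and 0 counts in the normal libraries and 1, 2 and 0 in the tumours.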
